A study of Mus musculus with 18 samples.

Results

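The lysyl oxidase family was followed across 18 RNA samples of NIH3T3 cells, a mouse embryonic fibroblast line. Its 5 members in the deposited count tables, of 24062 genes in all, are Lox, Loxl1, Loxl2, Loxl3 and Loxl4. Lox was picked from its own values: it has the third largest total count of all genes, and its share of the gene counts differed 3.06-fold between the lowest and the highest sample. Its level and its variation are therefore given as a description with no test, and the tests concern the paralogs. Just inside that limit Lox had 2295628 counts summed over the samples, and just outside it Col1a2 had 2113373.

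Per the labels, the study used the parental NIH3T3 line (called WT here) and NIH3T3-mCherry-mTRIM21, a derived line with a fusion of mCherry, a fluorescent protein, and mouse TRIM21 (the TRIM21 line). TRIM21 is a ubiquitin ligase that binds antibodies inside cells. Cells of both lines were electroporated with 2 pulses of 20 ms at 1400 V in the presence of PBS, 7.5 µg of bovine serum albumin (BSA) or 7.5 µg of an antibody (IgG), and RNA was taken 16 h later. Every group, PBS included, was thus electroporated, and no sample without a pulse is used here. Each of the 6 combinations of line and agent had 3 samples, which carry the numbers 10, 11 and 14 in their titles. The labels do not say whether the numbers mark separate cultures, so p-values measure the spread between these samples, which may be technical. The TRIM21 line is a single derived line set against its parent, and an effect of the fusion and any other difference between the lines cannot be told apart.

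Lysyl oxidases are secreted copper-dependent amine oxidases. They convert lysine and hydroxylysine side chains of collagens and elastin into aldehydes, which then join into the covalent crosslinks that make collagen fibrils and elastic fibres strong and insoluble. Lox and Loxl1 are made as proenzymes with a propeptide that is cut off outside the cell, whereas Loxl2, Loxl3 and Loxl4 carry scavenger receptor cysteine-rich domains before the catalytic domain that all members share. Fibroblasts are a main source of these enzymes in connective tissue.

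The catalytic domain is where the genes are most alike, and how alike they are bears on whether a read can be given to the right member. Lines of 45 coding bases from that domain are shown for the paralogs, from the GRCm38 genome with GENCODE exons and 5′ to 3′ on the coding strand. Capitals mark the bases that are the same in all 4, which is 30 of 45.
Loxl1, chr9:58293618-58293662, minus strand, exon 4 of 7: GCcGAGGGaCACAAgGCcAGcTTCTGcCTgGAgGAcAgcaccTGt
Loxl2, chr14:69689092-69689136, plus strand, exon 11 of 14: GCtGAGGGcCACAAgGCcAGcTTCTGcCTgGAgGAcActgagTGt
Loxl3, chr6:83050180-83050224, plus strand, exon 11 of 14: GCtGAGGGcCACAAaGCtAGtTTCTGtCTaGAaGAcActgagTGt
Loxl4, chr19:42598708-42598752, minus strand, exon 12 of 15: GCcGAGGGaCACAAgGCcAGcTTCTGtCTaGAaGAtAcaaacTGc

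In this window Loxl2 matched Loxl1 at 38 bases, Loxl4 matched it at 37 and Loxl3 at 32. Over whole transcripts, the longest identical run between any pair of members was 32 bases, between Lox and Loxl1. Lox and Loxl4 shared no run of 12 bases or more. The length of the sequenced reads is not given in the sources used here.

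The members lie on 5 chromosomes. In GRCm38, Lox spans 52516067 to 52529867 on chromosome 18 (minus strand), Loxl1 58287738 to 58313186 on chromosome 9 (minus strand) and Loxl2 69609068 to 69695834 on chromosome 14 (plus strand). Loxl3 spans 83034173 to 83052562 on chromosome 6 (plus strand) and Loxl4 42593982 to 42612813 on chromosome 19 (minus strand). Loxl3 shares 535 of its exonic bases (11.6%) with Htra2 on the opposite strand, and the strand setting used for counting is not given in the sources used here, so reads from that overlap cannot be assigned with certainty. The overlap of Lox exons with an antisense gene, AC161119.1, covers 30 bases.

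The TRIM21 samples held 20314542 to 29766433 gene counts and the WT samples 19509017 to 26521824 (n = 9 each). Trim21 itself was at 984 to 1188 CPM (counts per 1e+06 gene counts, scaled by TMM factors) in the TRIM21 line and 6.54 to 9.73 in the WT line, which fits the labels. The 10 fibroblast markers all had counts, though Fap had only 5 over all 18 samples. They summed to 14940 to 25187 CPM in the TRIM21 line and 21516 to 29288 in the WT line. Epithelial markers summed to at most 2.25 CPM with Krt5 at 0, endothelial markers to at most 2.60, leukocyte markers to at most 6.44 with Cd3e at 0, and skeletal muscle markers to at most 0.0508 with Myod1, Myog and Ckm at 0. The TRIM21 PBS sample numbered 11 stood apart: the median absolute deviation of its log2 CPM from the median of each gene was 0.272, against 0.0773 to 0.203 in the other 17 libraries, and its fibroblast markers had the lowest sum. The next farthest, at 0.203, was WT PBS 14.

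Lox made up nearly the whole family at the RNA level. Levels between genes are compared as CPM per kilobase of annotated exon. On that scale Lox was at 1163 ± 250 (SD, n = 18), Loxl1 at 86.0 ± 15.6, Loxl3 at 27.2 ± 2.70, Loxl4 at 3.41 ± 0.491 and Loxl2 at 0.0103 ± 0.00833. The ranges of neighbours in this order did not overlap: Lox lay between 598 and 1740, Loxl1 between 63.0 and 117, Loxl3 between 20.8 and 31.0, Loxl4 between 2.83 and 4.38, and Loxl2 between 0 and 0.0266. Lox held 85.4% to 95.2% (median 90.5%) of the summed per-kilobase level of the family. Loxl1 was next, with 3.45% to 10.0%.

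**Figure D1:**
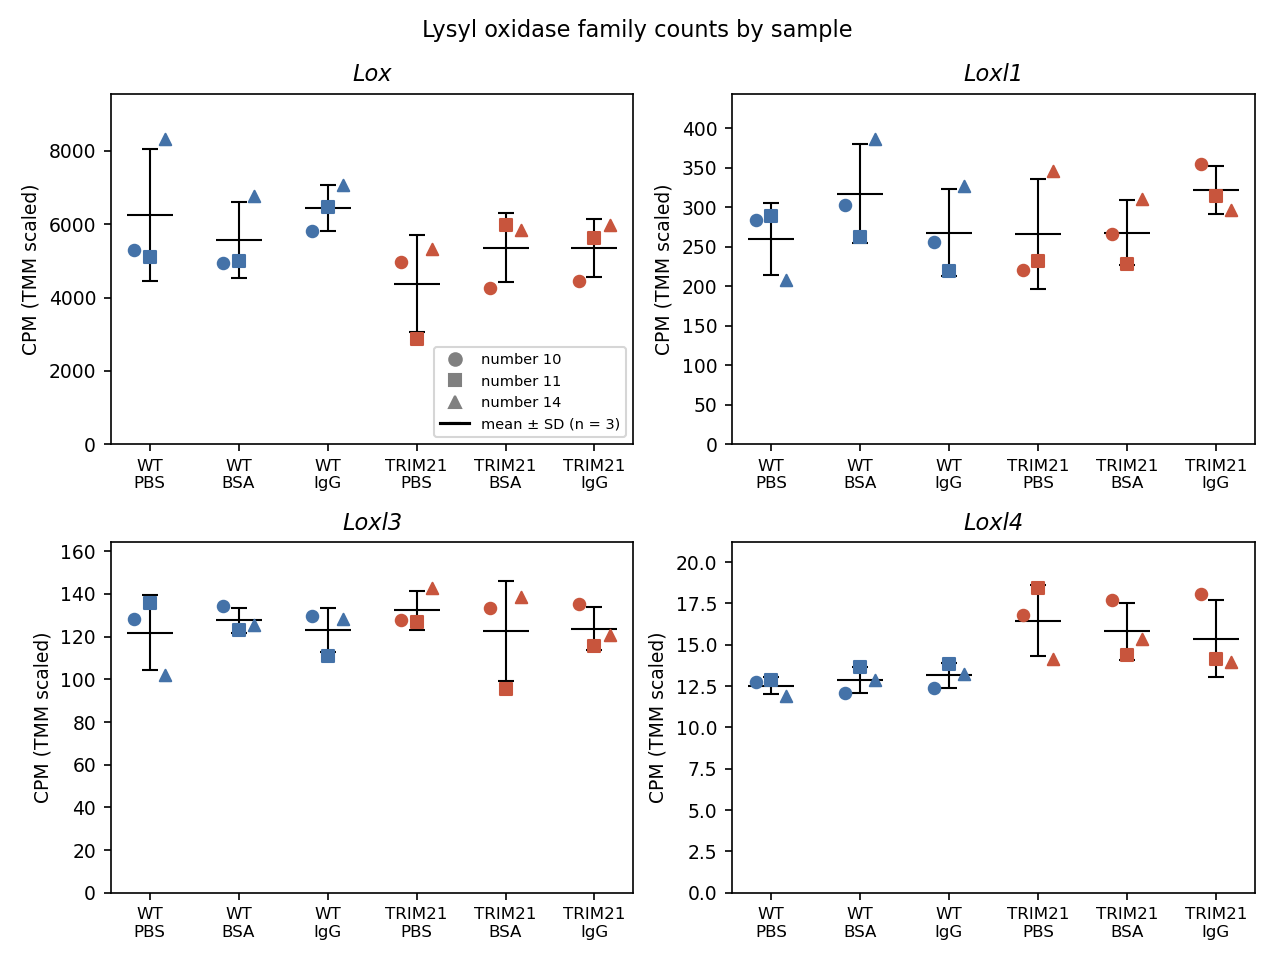
CPM (TMM scaled, linear axes from 0) of Lox, Loxl1, Loxl3 and Loxl4 in each of the 18 samples, by line and agent, with the sample number as the marker shape and the group mean ± SD (n = 3) as bars. Loxl4 lies between 13.95 and 18.5 CPM in the TRIM21 line and between 11.9 and 13.86 in the WT line, whereas the lines overlap for the other 3 genes.

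Lox, the main crosslinker of fibrillar collagens and elastin, was measured in TRIM21 cells at 4964, 2857 and 5313 CPM after PBS (samples 10, 11 and 14). After BSA the values were 4267, 5966 and 5852 CPM, and after IgG 4462, 5618 and 5982. In WT cells Lox was at 5309, 5105 and 8315 CPM after PBS, 4929, 4995 and 6756 after BSA, and 5818, 6472 and 7071 after IgG. The lowest sample was TRIM21 PBS 11 and the highest was WT PBS 14, which are also the 2 libraries farthest from the rest over all genes. The other 16 samples lay between 4267 and 7071 CPM, and the samples of the lines overlapped.

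The mean of Lox was 5031 ± 1032 CPM in the TRIM21 line and 6085 ± 1157 in the WT line (SD, n = 9 each), and Lox was lower in TRIM21 in 8 of 9 pairs with the same agent and number. The fitted log2 fold change was -0.28 (SE 0.131), and it was -0.21 without TRIM21 PBS 11 and -0.20 without WT PBS 14. The sample number went with the level of Lox as well. Samples numbered 14 averaged 6548 ± 1074 CPM, those numbered 10 averaged 4958 ± 564, and those numbered 11 averaged 5169 ± 1258 (SD, n = 6 each). Among the samples numbered 14, the TRIM21 line (5313 to 5982 CPM) lay wholly below the WT line (6756 to 8315 CPM). The lines overlapped among those numbered 10 (4267 to 4964 CPM in TRIM21 and 4929 to 5818 in WT). They also overlapped among those numbered 11 (2857 to 5966 CPM in TRIM21 and 4995 to 6472 in WT). In rank by counts, Lox was between place 2 and place 15 among all genes of a sample, with a median place of 3.5.

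By agent (mean ± SD, n = 3 each), Lox in the TRIM21 line was at 4378 ± 1328 CPM with PBS, 5362 ± 950 with BSA and 5354 ± 794 with IgG. WT cells had 6243 ± 1798, 5560 ± 1036 and 6454 ± 626 CPM in the same order. Within a line, the samples of every agent overlapped those of the others. The lowest mean was that of TRIM21 cells after PBS, where sample 11 was at 2857 CPM and the other 2 at 4964 and 5313 CPM.

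Loxl1, which works mainly on elastin and on elastic fibre upkeep, was at 221, 232 and 347 CPM in TRIM21 cells after PBS (samples 10, 11 and 14). The values were 266, 228 and 310 after BSA and 355, 315 and 296 after IgG. In WT cells Loxl1 was at 284, 290 and 208 CPM after PBS, 304, 262 and 386 after BSA, and 257, 220 and 327 after IgG. High and low samples of Loxl1 occurred in both lines and the lines overlapped almost completely, with means of 285 ± 51.1 CPM in TRIM21 and 282 ± 54.6 in WT (SD, n = 9 each).

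Loxl2, a paralog known for acting on basement membrane collagen, was barely counted. It had 0 to 3 counts in each of the 18 samples, 9 in total in the TRIM21 line and 14 in the WT line. That is at or under the 3 counts taken here as detectable in each library (0.101 to 0.154 CPM without the TMM factor), so no fold is given and Loxl2 was not tested.

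Loxl3, needed for normal palate and cartilage development in mice, was at 128, 127 and 143 CPM in TRIM21 cells after PBS (samples 10, 11 and 14), 134, 95.7 and 138 after BSA, and 135, 115 and 121 after IgG. In WT cells it was at 128, 136 and 102 CPM after PBS, 134, 123 and 126 after BSA, and 130, 111 and 128 after IgG. The lines overlapped, from 95.7 to 143 CPM in TRIM21 and from 102 to 136 in WT, and the lowest sample was TRIM21 BSA 11. The SD of log2 CPM within groups, pooled over the 6 groups, was 0.17 for Loxl3, 0.14 for Loxl4, 0.27 for Loxl1 and 0.32 for Lox.

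Loxl4, a scavenger receptor domain paralog, was the member whose level separated the lines. In TRIM21 cells it was at 16.8, 18.5 and 14.2 CPM after PBS (samples 10, 11 and 14), 17.7, 14.4 and 15.4 after BSA, and 18.05, 14.1 and 13.9 after IgG. In WT cells it was at 12.8, 12.9 and 11.9 CPM after PBS, 12.1, 13.7 and 12.9 after BSA, and 12.4, 13.9 and 13.3 after IgG. Every TRIM21 sample was above every WT sample, with the lowest TRIM21 value at 13.95 CPM and the highest WT value at 13.86 CPM. The counts behind these values ran from 249 to 470 per sample. In such bulk RNA, a change in the share of cells that express a gene and a change in RNA per cell cannot be told apart.

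The comparison of the lines asked how carrying the mCherry-mTRIM21 fusion goes with other RNA differences. Loxl4 rose in the TRIM21 line, to 15.9 ± 1.86 CPM against 12.9 ± 0.667 (SD, n = 9 each). The log2 fold change was 0.30 (SE 0.0743, 95% interval 0.15 to 0.46), with a Benjamini-Hochberg adjusted p of 0.0185 in edgeR's quasi-likelihood test. It was higher in 9 of 9 pairs with the same agent and number. A two-sided exact permutation test over samples gave p = 4.11e-05, the smallest that 48620 assignments can give. This p and the 9 of 9 pairs both follow from the lack of overlap given above, so they are not separate support. Loxl1 (log2 fold change 0.018, 95% interval -0.22 to 0.25, edgeR adjusted p = 0.941) and Loxl3 (0.023, 95% interval -0.13 to 0.18, edgeR adjusted p = 0.886) did not pass the threshold of 0.05.

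So 1 of the 3 tested paralogs passed in the line comparison, beside 6.18% of the 12140 genes tested (1.39% higher and 4.79% lower in TRIM21). Of all genes tested, 0.239% had no overlap of CPM between the lines with TRIM21 higher. The Loxl4 call was lost when TRIM21 BSA 10 was left out (log2 fold change 0.27, edgeR adjusted p = 0.0512), and it held without TRIM21 PBS 11 (0.27, adjusted p = 0.0367) and without WT PBS 14 (0.29, adjusted p = 0.0405). The summed fibroblast markers had a lower range in the TRIM21 line, as given above, and their part in the Loxl4 difference was not tested.

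Within single agents the Loxl4 difference kept its sign. It was 0.39 on the log2 scale after PBS (SE 0.129, edgeR adjusted p = 0.134), 0.30 after BSA (SE 0.128, adjusted p = 0.424) and 0.23 after IgG (SE 0.129, adjusted p = 0.709). None of these passed the threshold with 3 samples a group, and the percentages of all genes that did were 1.71% after PBS, 0.848% after BSA and 0.774% after IgG. By edgeR, limma-voom and the DESeq2 Wald test alike, 0 of the 3 paralogs were called within an agent, and 1 of 3 had an unadjusted p under 0.05 after PBS and after BSA. Without TRIM21 PBS 14 the PBS difference of Loxl4 was 0.49 with an edgeR adjusted p of 0.0394. Whether the difference varied with the agent was tested directly: the interaction of line with IgG against PBS was -0.16 (SE 0.182, edgeR adjusted p = 0.972).

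**Figure D2:**
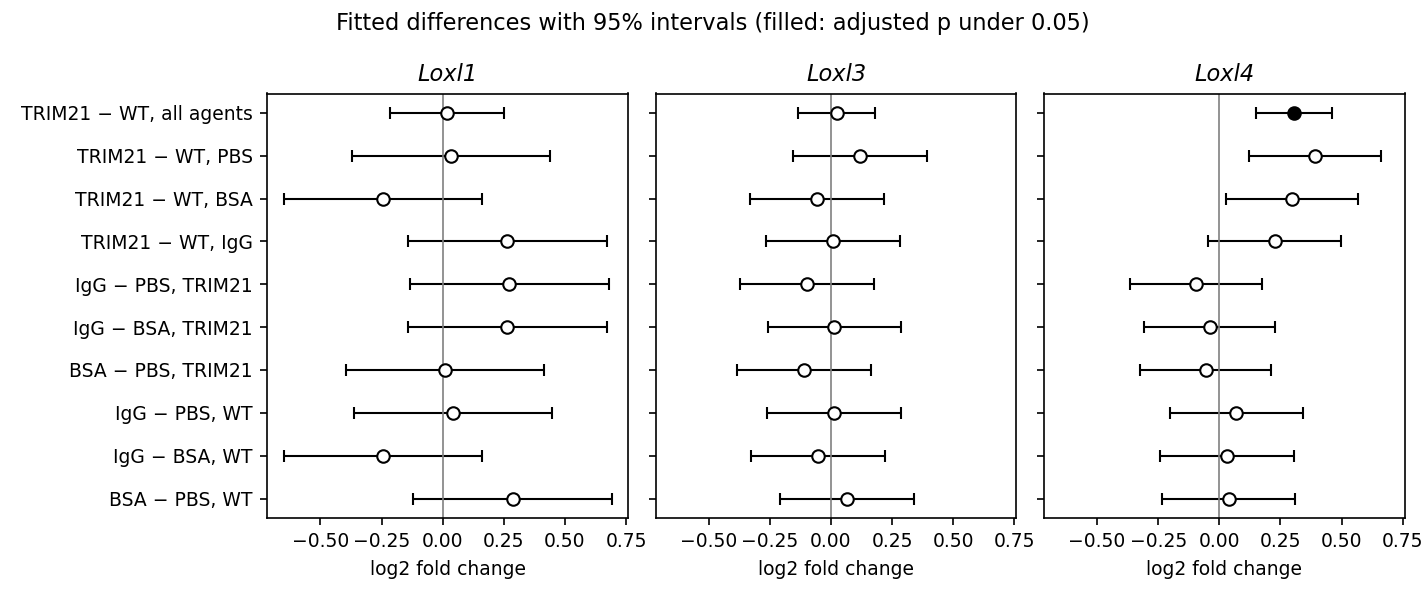
Fitted log2 fold changes of Loxl1, Loxl3 and Loxl4 with 95% intervals (edgeR quasi-likelihood) for the line and agent comparisons, filled where the adjusted p is under 0.05. The single filled point is Loxl4 in the line comparison at 0.30, and every comparison between agents has an interval that includes 0.

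The comparisons of agents asked what an electroporated antibody or BSA changed against PBS, with and without the fusion. No paralog passed in any of the 9 agent comparisons or the 3 interactions by edgeR, limma-voom or DESeq2, and none had an unadjusted p under 0.05. In edgeR the percentage of all genes called was 0% in each of these 12. At an unadjusted p under 0.05 there were 45 to 790 genes in a comparison, and DESeq2 called 5 genes for IgG against PBS over both lines (Dancr, Cetn3, Taf1d, Nop58 and Smc4, all lower, none in the lists) and 0 in the others.

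For the antibody against PBS in the TRIM21 line, the condition in which fusion and antibody meet, Loxl1 was at 322 ± 30.2 CPM against 266 ± 69.6 (SD, n = 3 each). Its log2 fold change was 0.27 (95% interval -0.13 to 0.68, edgeR adjusted p = 0.728). Loxl3 had a log2 fold change of -0.097 (95% interval -0.37 to 0.18) and Loxl4 one of -0.095 (95% interval -0.36 to 0.17). The corresponding WT values were 0.041 for Loxl1 (95% interval -0.36 to 0.45), 0.013 for Loxl3 (-0.26 to 0.29) and 0.070 for Loxl4 (-0.20 to 0.34). The comparisons of IgG and of BSA with PBS share the PBS samples.

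The widest interaction estimate was that of Loxl1 for IgG against BSA. Loxl1 was at 322 ± 30.2 CPM after IgG and 268 ± 41.2 after BSA in TRIM21 cells, and at 268 ± 54.7 and 317 ± 63.1 in WT cells (SD, n = 3 each). The interaction was 0.51 on the log2 scale (SE 0.273, 95% interval -0.065 to 1.08, edgeR adjusted p = 0.843), so a difference between the lines in this response was not shown, and the interval is wide.

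No paralog was shown to rise and fall with Lox. Across the 9 samples of each line, none of the 6 relations of a paralog with Lox in log2 CPM was positive with an exact permutation p under 0.05. Loxl4 ran opposite to Lox in the TRIM21 line, with Pearson r = -0.829 (n = 9, two-sided exact permutation p = 0.000667, Benjamini-Hochberg adjusted p = 0.00400 over 6 relations) and Spearman rho = -0.85 (exact permutation p = 0.00607, adjusted p = 0.0364). TRIM21 PBS 11, with the lowest Lox of the line (2857 CPM), had its highest Loxl4 (18.5 CPM), and TRIM21 IgG 14, with the highest Lox (5982 CPM), had its lowest Loxl4 (13.95 CPM). Without the samples farthest from the median of Lox, TRIM21 PBS 11 and TRIM21 BSA 10, r was -0.856 (n = 7, exact permutation p = 0.0196, adjusted p = 0.118), and without TRIM21 PBS 11 alone it was -0.890 (n = 8, exact permutation adjusted p = 0.0345). With that sample out, the TRIM21 samples numbered 10 had Lox at 4267 to 4964 CPM and Loxl4 at 16.8 to 18.05 CPM. The rest of the line had Lox at 5313 to 5982 CPM and Loxl4 at 13.9 to 15.4 CPM. The value of -0.890 thus largely reflects a difference between sample numbers. When deviations from the number means were taken and arrangements kept within the sample numbers, r was -0.912 (n = 9, exact permutation p = 0.0972, adjusted p = 0.194), so the relation did not pass in that form. In the WT line the relation of Loxl4 with Lox was r = -0.143 and rho = -0.0667 (n = 9, exact permutation adjusted p = 0.712 and 0.948), and the difference between the lines was not tested.

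Loxl3 in the WT line had r = -0.731 with Lox (n = 9, exact permutation p = 0.0209, adjusted p = 0.0628) and rho = -0.533 (exact permutation p = 0.148, adjusted p = 0.443). Without WT PBS 14 and WT IgG 14, the samples farthest from the median of Lox, r was -0.603 (n = 7, exact permutation p = 0.147), and without WT PBS 14 alone it was -0.447 (n = 8, exact permutation adjusted p = 0.524). In the TRIM21 line Loxl3 gave r = -0.279 and rho = -0.333 (n = 9, exact permutation adjusted p = 0.692 and 0.771). In deviations from the number means r was -0.739 in the TRIM21 line (n = 9, exact permutation p = 0.208, adjusted p = 0.3125). In the WT line it was -0.820 in that form (n = 9, exact permutation p = 0.0463, adjusted p = 0.139). Neither relation of Loxl3 passed the threshold after adjustment.

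Loxl1, the closest relative of Lox in the family, had no relation with it that passed. In the TRIM21 line r was 0.305 and rho 0.0333 (n = 9, exact permutation adjusted p = 0.692 and 0.948), and without the samples farthest from the median of Lox r was -0.256. In the WT line r was -0.215 and rho -0.15 (n = 9, exact permutation adjusted p = 0.692 and 0.948), and without the farthest samples r was 0.116. In deviations from the number means r was -0.841 in the WT line (n = 9, exact permutation p = 0.00926, adjusted p = 0.0556) and 0.101 in the TRIM21 line (adjusted p = 0.981).

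**Figure D3:**
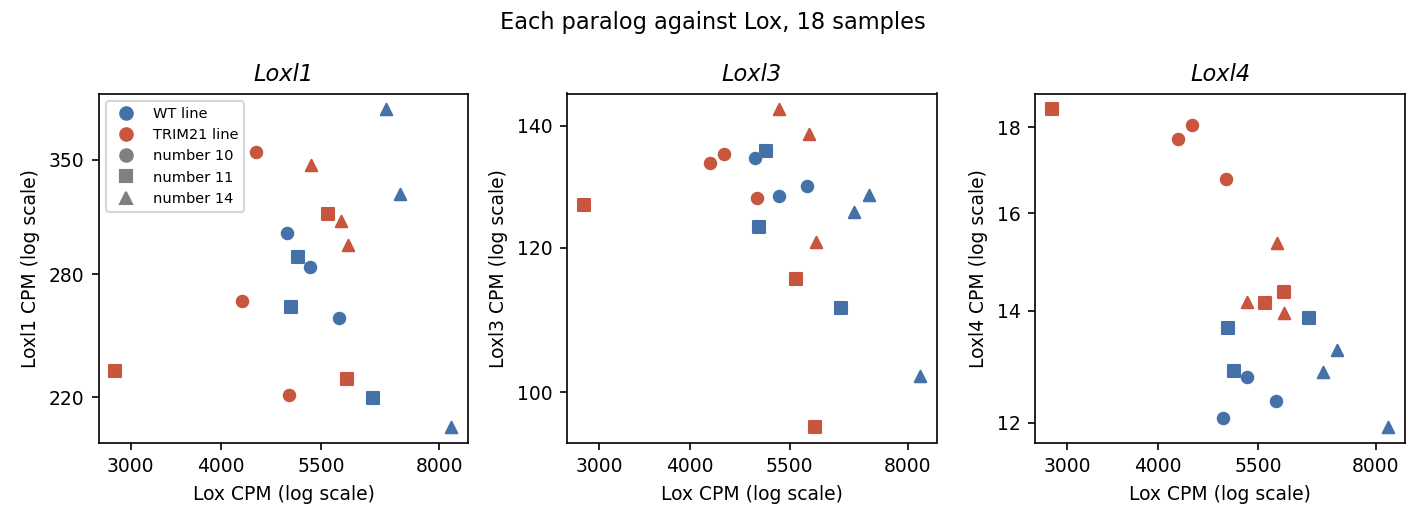
Loxl1, Loxl3 and Loxl4 against Lox in CPM (log axes) in 18 samples, coloured by line and shaped by sample number. In the TRIM21 line the points of Loxl4 fall as Lox rises (r = -0.829, n = 9), and the clouds of Loxl1 have no clear slope.

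Since Lox was highest in the samples numbered 14, the relations were also taken within each number, as deviations from the line means over 6 samples. Loxl1 gave r of -0.620, 0.111 and -0.960 within numbers 10, 11 and 14, Loxl3 gave -0.780, -0.779 and -0.898, and Loxl4 gave -0.311, -0.858 and -0.481. With 36 arrangements the smallest exact permutation p is 0.0278, and none of these 9 values passed after adjustment (smallest adjusted p = 0.25). Over both lines together, the inverse sign of Loxl4 and Loxl3 was thus seen within all 3 numbers, while that of Loxl1 was not. For Loxl4 it did not hold in each line alone. Among the samples numbered 11, TRIM21 PBS had the lowest Lox of its line (2857 CPM) and the highest Loxl4 (18.5 CPM). WT IgG, in contrast, had both the highest Lox (6472 CPM) and the highest Loxl4 (13.9 CPM) of its line. Within the TRIM21 line, the samples numbered 14 had Lox at 5313, 5852 and 5982 CPM after PBS, BSA and IgG. Their Loxl4 was at 14.2, 15.4 and 13.9 CPM, so it did not fall steadily as Lox rose.

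A property of the libraries was set beside the members as well. The share of reads that the counting assigned to no feature ran from 13.1% to 18.8%. It was taken out of these reads plus those counted for a gene or ambiguous between genes. Such reads need not lie outside annotated genes. For Lox, r with it was 0.790 in the WT line and 0.536 in the TRIM21 line (rho 0.783 and 0.817, n = 9 each), given as a description. For Loxl3, r was -0.699 and -0.746 (rho -0.517 and -0.517, n = 9 each, exact permutation adjusted p over 16 relations 0.149 and 0.149), and Loxl4 in the TRIM21 line had r = -0.574 (rho -0.533, adjusted p 0.242). Without the 2 samples farthest from the median of that share, r was 0.515 and 0.554 for Lox, -0.209 and -0.265 for Loxl3 and -0.481 for Loxl4. The part of this share in the relations between members was not tested.

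Among the paralogs themselves, the highest r was that of Loxl1 with Loxl3, at 0.705 in the WT line and 0.508 in the TRIM21 line (rho 0.533 and 0.5, n = 9 each, exact permutation adjusted p = 0.207 and 0.469 over 6 relations). Neither passed the threshold.

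The genes whose pattern was most like that of Lox were found over 9008 genes with a mean CPM of at least 10, by the Pearson correlation of deviations from the 6 group means over 18 samples. They were Crebrf (r = 0.972), Trp53inp1 (0.966), Rhoq (0.966), Sec23a (0.964) and Scd2 (0.963), which code for a regulator of the CREB3 factor, a p53-induced protein, a small GTPase, a coat protein of vesicles leaving the endoplasmic reticulum and a fatty acid desaturase. The most opposite were Ahsa1 (-0.974), Rcl1 (-0.972) and Gps1 (-0.959), which code for an activator of the chaperone Hsp90, a ribosomal RNA processing factor and a subunit of the COP9 signalosome. Of the 9008 genes, 18.5% had r over 0.5 with Lox, and the median was -0.0842. Without TRIM21 PBS 11 the 5 genes had r of 0.947 to 0.965 and the 3 opposite ones -0.960 to -0.936, and without WT PBS 14 as well they had 0.920 to 0.971 and -0.940 to -0.893. All points share library and depth, so the values are descriptive.

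By the same measure, Loxl1 was closest to Fam171a2 (r = 0.983) and Plekhg5 (0.974), Loxl3 to Tmem161a (0.926) and Kctd15 (0.921), and Loxl4 to Urb1 (0.828) and Iffo2 (0.814). The nearest genes of the 4 members were all different. The share of genes with r over 0.5 was 19.8% for Loxl1, 19.0% for Loxl3 and 8.49% for Loxl4.

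The substrates, helpers and usual inducers of the enzymes were taken from lists and read in the same line comparison, in which 6.18% of all genes passed and the median log2 fold change of all genes was 0.014. Of the 10 tested collagen and elastin chains (of 12 listed), 2 fell in the TRIM21 line and 0 rose, and the median log2 fold change was -0.25. Col11a1, a minor fibrillar collagen chain, was at 1.85 ± 0.451 CPM in TRIM21 and 4.55 ± 0.782 in WT (SD, n = 9 each; log2 fold change -1.30, edgeR adjusted p = 1.44e-06). Col5a2, a chain of the collagen that starts fibrils, fell by 0.35 on the log2 scale (edgeR adjusted p = 0.0169). The main fibrillar chains that Lox crosslinks did not pass: Col1a1 had a log2 fold change of -0.43 (edgeR adjusted p = 0.145), Col1a2 of -0.25 (adjusted p = 0.231) and Col3a1 of -0.44 (adjusted p = 0.195). Elastin itself, Eln, had 17 counts over all 18 samples and was not tested.

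In the elastic fibre and microfibril list, 3 of 12 tested genes (of 15 listed) fell and 0 rose, with a median of -0.11. They were Fbn1, the main microfibril protein (205 ± 16.8 CPM in TRIM21 against 254 ± 26.8 in WT, log2 fold change -0.30, edgeR adjusted p = 0.00371), and the microfibril-associated Mfap5 (-0.52, adjusted p = 0.00248) and Mfap4 (-1.93, adjusted p = 0.000652). Mfap4 was low in both lines, at 0.513 ± 0.273 and 2.01 ± 0.911 CPM (SD, n = 9 each). Fbln5, which binds Loxl1 and elastin, was at a log2 fold change of -0.19 (edgeR adjusted p = 0.0546).

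Of 8 tested genes for propeptide processing and Lox-binding matrix proteins (of 11 listed), 2 fell and 0 rose, with a median of -0.20. Postn, a matrix protein that brings Bmp1 to Lox, was at 52.1 ± 21.7 CPM in TRIM21 and 109 ± 39.9 in WT (SD, n = 9 each; log2 fold change -1.06, edgeR adjusted p = 0.0124). Tll1, a protease related to Bmp1, fell by 0.89 on the log2 scale (edgeR adjusted p = 0.0154) at levels near 1 CPM. Bmp1 itself, the main propeptide protease, was at -0.22 (adjusted p = 0.166), and the fibronectin gene Fn1 at -0.13 (adjusted p = 0.671).

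Copper delivery, which lysyl oxidases need for their cofactor, showed 1 of 8 tested genes lower and 0 higher, with a median of 0.0035. That gene was Slc31a2, a copper transporter (log2 fold change -0.30, edgeR adjusted p = 0.0290). For collagen hydroxylation and folding, 2 of 14 tested genes (of 17 listed) fell and 0 rose, with a median of -0.16. Crtap, a partner of the prolyl 3-hydroxylase, was at 74.0 ± 6.11 CPM in TRIM21 and 107 ± 7.18 in WT (SD, n = 9 each; log2 fold change -0.54, edgeR adjusted p = 4.30e-06), and its samples did not overlap between lines, as for 1.91% of all genes tested. P4ha1, the catalytic chain of a prolyl 4-hydroxylase, fell by 0.31 on the log2 scale (edgeR adjusted p = 0.0379).

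TGF-beta and hypoxia are known inducers of Lox. In the TGF-beta list 2 of the 15 genes reported fell, with a median of -0.11. Tgfb3, a ligand, fell by 0.32 on the log2 scale (edgeR adjusted p = 0.00647) and the receptor Tgfbr1 by 0.23 (adjusted p = 0.0482). In the hypoxia list 2 of 15 tested genes (of 16 listed) fell and 0 rose, with a median of -0.22. They were the targets Car9 (-0.68, edgeR adjusted p = 0.0225) and Egln3 (-0.61, adjusted p = 0.0121), and the factor Hif1a was at 0.0078 (adjusted p = 0.964).

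Without TRIM21 PBS 11 the counts of lower genes in these 7 lists were 2, 3, 2, 1, 3, 2 and 2, and the medians were -0.20, -0.043, -0.17, 0.015, -0.13, -0.047 and -0.13, beside 0.0069 over all genes. Of the 9 tested fibroblast markers, 1 fell in the TRIM21 line, Thy1 (log2 fold change -0.29, edgeR adjusted p = 0.0207), and 0 rose, with a median of -0.25. Without TRIM21 PBS 11 there were 2, Thy1 and Pdgfra, with a median of -0.19. Col1a1, Col1a2 and Col3a1 are in both the marker list and the collagen list. Fits that left out a sample called 517 to 1268 genes between the lines, against 750 with all samples. The 6.18% of the main fit is therefore not the share to set beside the counts without TRIM21 PBS 11. The part of the marker shift in the list counts was not tested. No gene of any list passed in a comparison of agents.

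**Figure D4:**
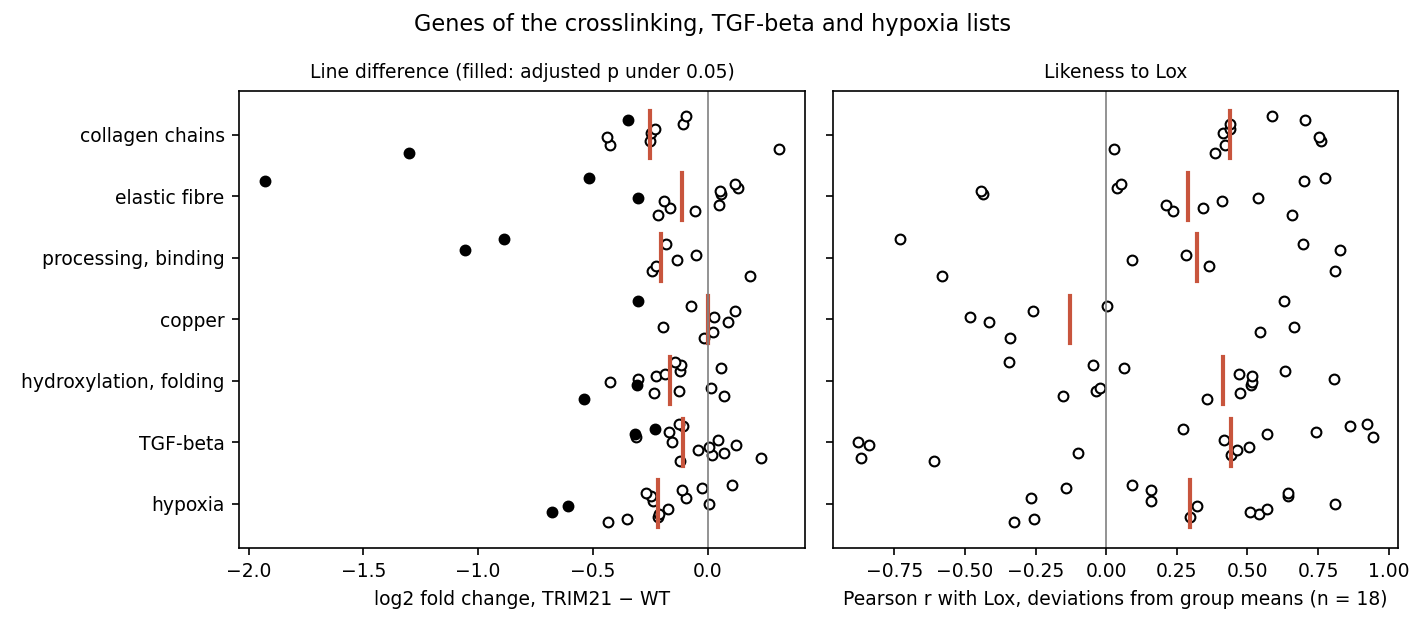
Each point is a tested gene of 7 lists and each bar the median of a list. The left panel shows log2 fold changes of TRIM21 against WT (filled where the adjusted p is under 0.05), with the filled points below 0, and the right panel the Pearson r with Lox of deviations from group means over 18 samples, with medians from -0.13 for copper delivery to 0.44 for the collagen and elastin chains and for TGF-beta.

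The variation of the substrate chains between libraries was set beside that of Lox. By the deviations from group means over 18 samples, r with Lox was above 0 for 10 of 10 tested collagen chains, with a median of 0.438 and the highest value for Col1a2 (0.760), against a median of -0.0045 over all tested genes. The median was 0.290 for the elastic fibre list, 0.323 for processing and binding proteins, 0.414 for hydroxylation and folding, 0.443 for the TGF-beta list and 0.298 for the hypoxia list. For copper delivery it was -0.128. Most of these medians moved when TRIM21 PBS 11 was left out. Without it the median was 0.264 for the collagen chains (9 of 10 above 0), 0.014 for the elastic fibre list, -0.122 for processing and binding proteins, -0.189 for copper delivery, -0.070 for hydroxylation and folding, 0.433 for the TGF-beta list and -0.263 for the hypoxia list. Without WT PBS 14 as well, the collagen chains had a median of 0.427 (10 of 10 above 0), the TGF-beta list 0.060 and the hypoxia list -0.490. The medians of the collagen chains and of the elastic fibre and TGF-beta lists were above 0 in all 3 settings and that of copper delivery below 0, whereas those of the processing, hydroxylation and hypoxia lists changed sign without TRIM21 PBS 11. Without WT PBS 14 as well, the processing median was above 0 again (0.186) and the hydroxylation median was -0.0022.

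Single genes in these lists stood at both ends. Tgfb2, a TGF-beta ligand, had r = 0.943 with Lox and Tagln, a smooth muscle gene that TGF-beta induces, had -0.878. Tagln was not alone among the targets in the TGF-beta list. Ctgf was at -0.870, Smad7 at -0.840 and Acta2 at -0.610, while Tgfbi was at 0.743 and Skil at 0.443. Postn was at 0.829, P4ha3 at 0.805, Hif1a at 0.809 and Mfap5 at 0.775, while Tll1 was at -0.731. The 9 tested fibroblast markers had a median r of 0.752, from -0.605 for Vim to 0.840 for Pdgfra. Without TRIM21 PBS 11 and WT PBS 14, Tgfb2 was at 0.839, Tagln at -0.740, Postn at 0.724, P4ha3 at 0.868, Hif1a at 0.426, Mfap5 at 0.492 and Tll1 at -0.565, and the markers had a median of 0.444. In the same setting Ctgf was at -0.722, Smad7 at -0.653, Acta2 at -0.193, Tgfbi at 0.362 and Skil at 0.060. These values describe shared variation between libraries and carry no test.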

How the data were processed

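RNA was measured in 18 samples, as raw read counts per gene deposited by the authors, 1 table per sample. The submitters' processing notes name bcl2fastq 2.19.1.403, FastQC 0.11.5, STAR 2.5.1b, HTSeq 0.6.0, DESeq2 1.6.3 and the build mm10, with no roles. Annotation and strand setting are not given in the sources used here. Lines for unassigned reads (46.5% to 50.5% of all entries) were left out.

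Samples were grouped by line and agent from the labels. With edgeR 4.0.16 in R 4.3.3, filterByExpr (minimum count 10, minimum total 15) kept 12140 of 24062 genes. TMM factors ran from 0.977 to 1.03. The quasi-likelihood model had a mean for each of the 6 groups and took in all 18 samples, and p-values were adjusted over all tested genes in each of 16 comparisons. Log2 CPM used a prior count of 2. Correlations used exact permutations. Positions are from GENCODE vM21. The procedure was tested on simulated data.

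Counts of same-group samples differed beyond counting noise (chi-square over its degrees of freedom 10.6 to 82.0), so none was counted as the same library deposited again; this does not show separate preparation. The members and lists were chosen with earlier results of these data known. A gene of the TGF-beta list is not reported here and stays out of that list's counts, medians and plot. Genes named besides members are list genes with adjusted p under 0.05 in the line comparison (up to 4 a list), the 5 most and 3 least correlated with Lox, and 2 per paralog. Col1a1, Col1a2, Col3a1, Eln, Fbln5, Bmp1, Fn1, Hif1a, Tgfb2, Tagln, Ctgf, Smad7, Acta2, Tgfbi, Skil, P4ha3, Vim, Pdgfra and 5 genes called by DESeq2 were named after their values were seen.

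Alternatives were DESeq2 size factors, no TMM, no filter, at least 10 counts in every sample, a replicate block, DESeq2 1.42.0 with its Wald test, limma-voom from limma 3.58.1, only the groups compared, and each sample left out. List counts with the block and without TRIM21 PBS 11, and correlations with Lox over genes without TRIM21 PBS 11 and WT PBS 14, were added after seeing the data.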

Additional observations from a re-analysis of the deposited data

How the results depend on the processing

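The Loxl4 line difference stayed past the threshold in 7 alternatives that kept all samples (log2 fold change 0.30 to 0.31, adjusted p 0.00335 to 0.0233) and in 17 of 18 fits that left out a sample. Leaving out a sample gave 0.26 to 0.33, and the exception was TRIM21 BSA 10 (0.27, adjusted p 0.0512), so the number of paralogs called ran from 0 to 1. The number of genes called between the lines, 750, was 1462 with the replicate block and 517 to 1268 with a sample left out, the highest without TRIM21 PBS 14. Same-numbered samples had a mean correlation of deviations of 0.218 and different-numbered ones -0.109, and 32 of 45 same-number pairs were over 0.1. As a hint from the data that samples of a number share variation, 16 of 18 samples correlated best with their own number. The labels do not say what the numbers mark, and the main fits did not take them as a pairing. Those fits and the free permutations therefore leave this shared variation out of account. With the replicate block the lower genes of the 7 lists numbered 4, 4, 3, 1, 6, 2 and 3, and Col1a1, Col3a1 and Fbln5 were then among those called. These list counts stand beside 1462 genes called in all with the block, against 750 in the main fit.

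The relation of Loxl4 with Lox in the TRIM21 line was -0.890 to -0.810 with a sample left out, -0.856 without the 2 farthest samples (adjusted p 0.118), and -0.912 with the replicate block (adjusted p 0.194, from 216 arrangements within numbers). Within numbers 10, 11 and 14, over the samples of both lines, the relation of Loxl4 with Lox was -0.311, -0.858 and -0.481. That of Loxl3 in the WT line was -0.839 to -0.447 with a sample left out, and passed without WT BSA 11 (-0.797, adjusted p 0.0316) or WT IgG 14 (-0.839, adjusted p 0.0362). The causes were not tested. In the block, Loxl1 and Lox in the WT line reached -0.841 (adjusted p 0.0556). Depth limits Loxl2, with 0 to 3 counts a sample.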
